A study of Mus musculus with 24 samples.

Results

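The wild-type (wt) brains of the series were described on their own, without any contrast of genotypes: 6 arrays, titled wt replicates 1 to 6, of 24 arrays in all. Each array held total RNA of a whole mouse brain at 4 months of age, hybridised to an Affymetrix array of 45101 probe sets. The other 18 arrays, 6 each labelled aSYN, Hsp70 and aSYN/Hsp70, came from whole brains of the same age. They enter the normalisation, the filter on dim probe sets and the choice of probe set for each gene. Beyond that they serve as a yardstick for single values and for the spread within a group. The labels give no strain, no sex and no dissection limits, and no label ties a sample to an animal, so the spread given here is the spread between these samples and may be partly technical. No test was possible within 1 group, and every result below is a description.

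A whole-brain extract mixes the RNA of all its cells. A gene used by most cells, such as one for a ribosomal or mitochondrial protein, reads almost the same whichever piece of tissue is taken. A gene used in a single region, such as the cerebellum, or in a gland attached to the brain, such as the pituitary, reads high or low with the amount of that tissue in the extract. Fewer cells of a type and less RNA per cell cannot be told apart in such bulk samples.

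Levels are log2 units of the deposited intensity plus 16, after quantile normalisation of all 24 arrays, and each gene was read at its brightest probe set that carried 1 symbol. Probe sets differ in how well they bind, so a level is compared between arrays only and never between genes. After the dimmest 40% of probe sets were left out (mean under 8.13), 12929 genes were tested. The Spearman correlation between pairs of wt arrays ran from 0.926 to 0.944 and the array medians from 478 to 525 intensity units. Over 4 control transcripts, the difference between 3' and 5' probe sets, a sign of RNA integrity, averaged 0.97, 0.73, 1.10, 0.79, 0.86 and 0.96 log2 units in replicates 1 to 6.

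The median gene had an SD of 0.185 log2 units over the 6 arrays, and the quartiles of all genes were 0.121 and 0.288. Dim genes varied more than bright ones: the SD typical of the level was 0.640 at a level of 8, 0.261 at 10, 0.157 at 12 and 0.0867 at 16. Each gene's SD was therefore divided by the typical SD of its level, a quantity called the SD ratio here, and a ratio of 2 or more was counted as wide. Of 12929 genes, 675 (5.22%) were wide. In 217 of the 675 (32.1%), replicate 1 lay farthest from the median of the 6 arrays, and in 186 (27.6%) it was replicate 6, against 31 (4.59%) for replicate 2. This share was not computed over all genes. Replicate 1 was highest in 23.9% and lowest in 24.6% of wide genes, against 20.7% and 18.1% of all genes. For replicate 6 these shares were 20.1% and 23.7%, against 16.4% and 23.3%. For replicate 2 they were 9.19% and 7.11%, against 9.75% and 11.5%. In 1037 genes (8.02%), wide or not, a single array stood apart from the other 5 by more than Dixon's critical share of the range.

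**Figure D1:**
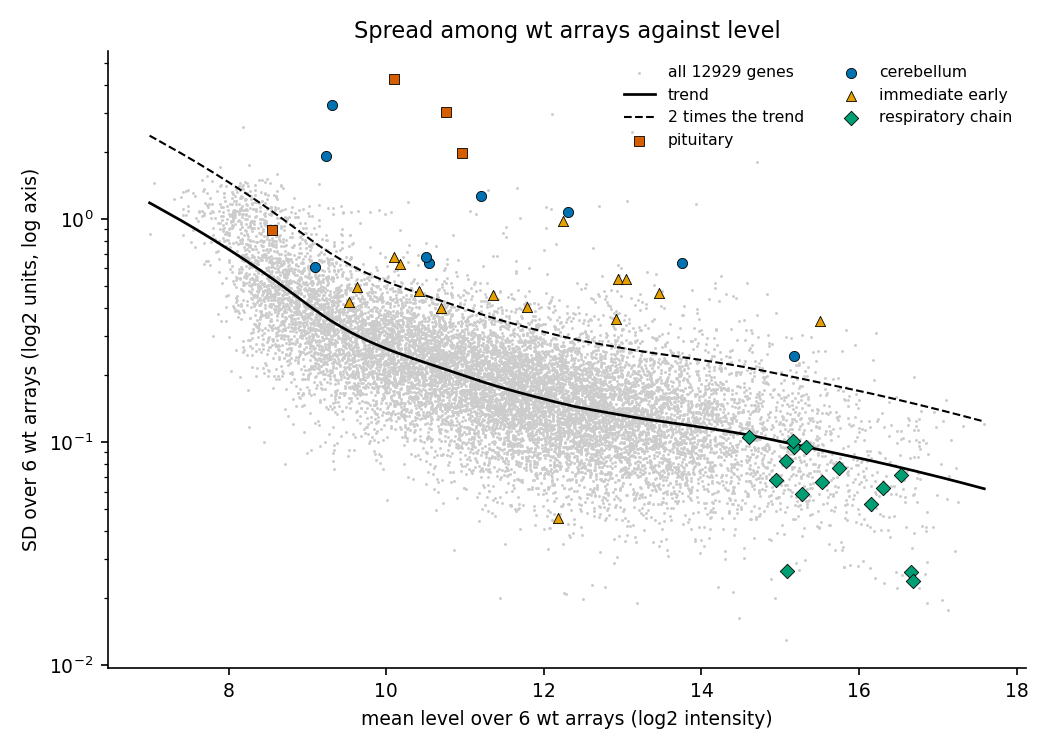
SD over the 6 wt arrays (log2 units, log axis) against mean level (log2 intensity) for 12929 genes (grey), with the trend (solid line), 2 times the trend (dashed line) and the tested members of 4 gene lists. Of the 4 lists, pituitary and cerebellar genes stand farthest above the dashed line, 11 of 15 immediate early genes lie on or above it, and the 15 respiratory chain genes have ratios of at most 1.03.

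Gene lists for brain regions, cell types, neighbouring tissues, physiological states and housekeeping functions, 39 in all with 462 genes, were set against this background. Among these genes 347 were tested, 73 were dim and 42 had no named probe set. The widest lists were pituitary (median SD ratio 12.03 over 4 tested members), sex-linked genes (10.4 over 2), cerebellum (5.27 over 9), immediate early genes (2.53 over 15), cortex and hippocampus (2.18 over 14) and GABA interneurons (2.12 over 13). The first 2 rest on the few members that passed the filter: with dim probe sets kept, the median was 1.65 for pituitary (7th of the 39 lists) and 2.7 for sex-linked genes, and with the median absolute deviation in place of the SD the sex-linked median was 1.86. The cerebellar value was 1.2 without replicate 1. The narrowest were glycolysis (0.723 over 9), the respiratory chain (0.778 over 15), the proteasome (0.849 over 15), common reference genes (0.89 over 9) and the cytosolic ribosome (0.946 over 12). The median over all genes was 0.986.

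**Figure D2:**
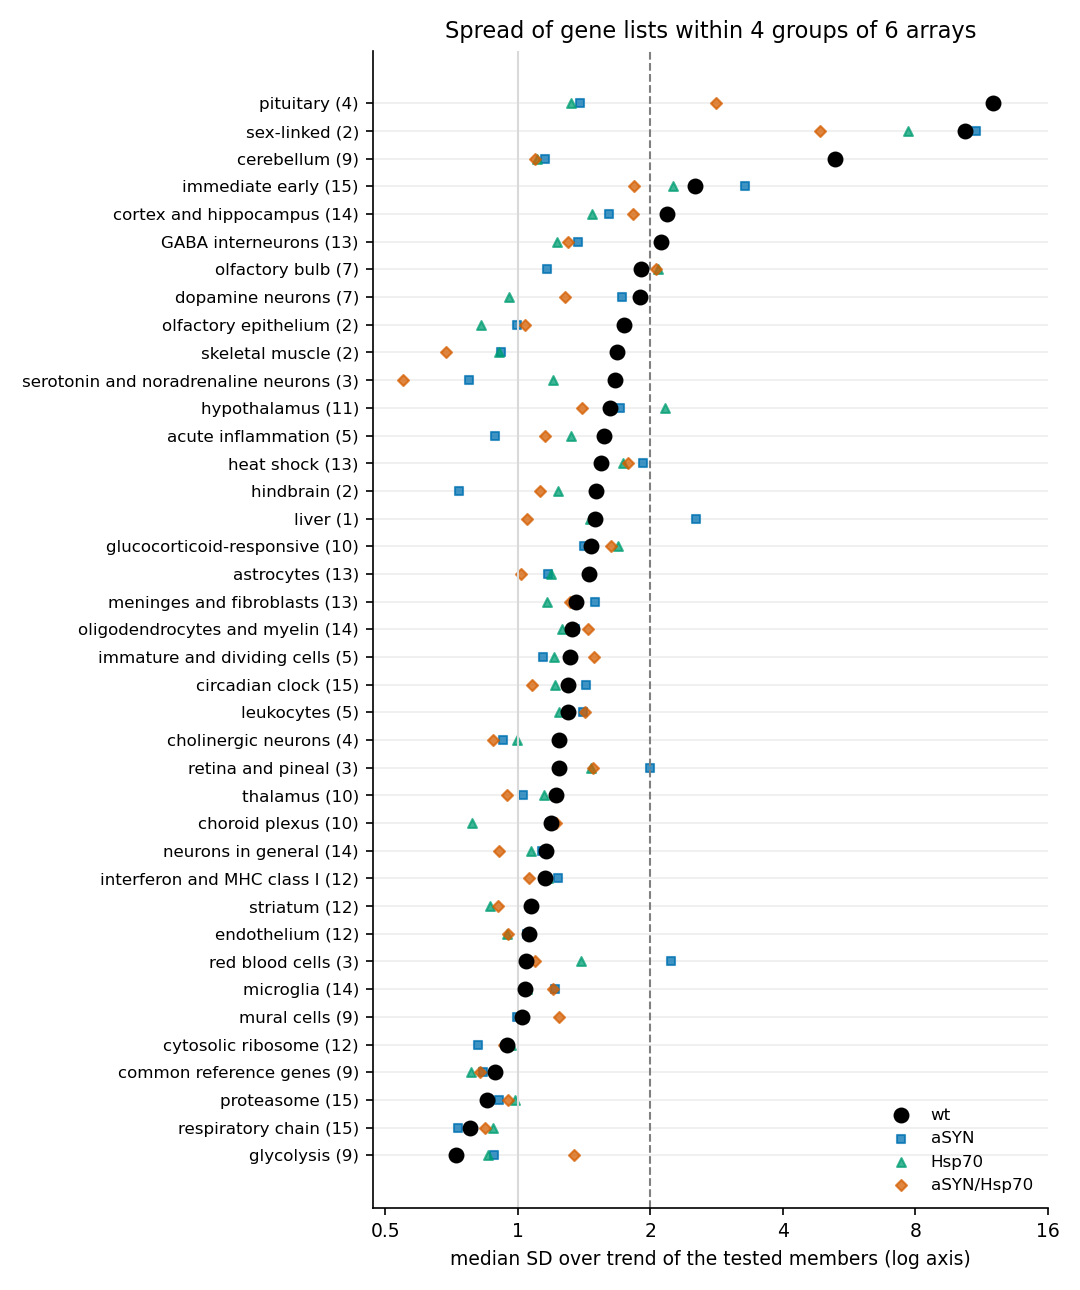
Median SD ratio of the tested members of 39 gene lists (number of members in brackets, log axis) among the 6 wt arrays (black) and among the 6 arrays of each other group. The pituitary (12.03) and cerebellum (5.27) lists stand farther right in wt than in any other group, while the sex-linked and immediate early lists are wide in several groups.

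Genes of the cerebellum formed the most uniform of the wide lists, and replicate 1 carried it. All 9 tested members were highest in replicate 1 among the 6 wt arrays, where 20.7% of all genes had their highest value, and all 9 were highest there among all 24 arrays (4.73% of all genes). The 4 dim members measured, Gabra6, Cbln3, En2 and Fat2, were also highest in replicate 1 of all 24 arrays. The wide members numbered 8 of 9 (5.22% of all genes). These 13 measured genes were listed for their place in the cerebellum, but 4 of them were too dim over the 24 arrays to be tested, so the median of the list rests on the 9 that passed.

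Pcp2, a gene of Purkinje cells, the output neurons of the cerebellar cortex, stood at 14.45, 5.41, 10.40, 8.78, 10.38 and 6.44 log2 units in replicates 1 to 6, and at 5.18 to 12.13 (median 8.50) in the other 18 arrays. Gabra6, the alpha6 subunit of GABA-A receptors typical of cerebellar granule cells, read 14.28, 4.87, 9.38, 6.22, 10.30 and 6.99. Both were high in replicate 1, intermediate in replicates 3 and 5 and at the level of dim probe sets in replicates 2 and 6, and a second probe set of each ordered replicate 1 the same way (12.88 for Pcp2 and 13.11 for Gabra6).

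Cbln1, a synapse organiser secreted by granule cells, read 14.42 in replicate 1 and 11.51 to 12.40 in the other 5 wt arrays, with 11.68 to 12.58 in the other 18. Car8, a Purkinje-cell member of the carbonic anhydrase family, read 13.69 in replicate 1 and 10.29 to 11.23 in the other 5, with a small step in the same direction at a second probe set (9.39 against 8.71 to 9.20) and none at the remaining, dim one (8.16 against 5.56 to 8.93). Zic1, a transcription factor of granule cells that other regions also use, read 15.02 against 13.27 to 13.60. At the brightest probe set of each of these genes replicate 1 was the highest of the 6 wt arrays, as for 20.7% of all genes.

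The remaining Purkinje-cell genes had the same shape. Ppp1r17, a phosphatase inhibitor, read 12.74 in replicate 1 and 7.16 to 9.40 in the others. Slc1a6, a glutamate transporter, read 11.79 against 10.05 to 10.52. Calb1, a calcium buffer that is also abundant in striatum and cortex, differed least, at 15.64 against 14.96 to 15.22.

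Granule-cell genes Cbln3 (11.72 against 6.28 to 8.83) and Fat2 (11.12 against 5.19 to 8.49), the hindbrain patterning factors En2 (10.36 against 7.63 to 8.68) and Zic2 (10.08 against 8.50 to 9.42), and Gdf10 (11.84 against 10.03 to 10.39), a growth factor of Bergmann glia, completed the list. The mean deviation of the 9 tested members from their wt means, their score, was 2.06 log2 units in replicate 1 and -0.75, -0.16, -0.52, 0.06 and -0.68 in replicates 2 to 6. Without replicate 1 the median SD ratio of the list was 1.2, close to its values of 1.15, 1.11 and 1.09 in aSYN, Hsp70 and aSYN/Hsp70 arrays. All 6 arrays are labelled whole brain, yet the defining cerebellar markers Pcp2 and Gabra6 were bright in replicate 1 and under the dim limit of 8.13 in replicates 2 and 6. How much cerebellum each sample held was not tested.

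Replicate 1 also read low for genes of the cerebral cortex. Of 14 tested genes of cortex and hippocampus, 10 were lowest in replicate 1 (18.1% of all genes). Among all 24 arrays, 6 were lowest there (4.47% of all genes). Wide were 8 of 14 (5.22% of all genes). Lamp5, a membrane protein of cortical neurons, read 13.60 in replicate 1 and 14.53 to 15.09 in the other 5 wt arrays, below the 13.89 to 15.04 of the other 18. Slc17a7, the vesicular glutamate transporter VGLUT1 of cortical, hippocampal and cerebellar granule neurons, read 12.17, 13.28, 12.34, 13.74, 13.10 and 13.24, so that replicates 1 and 3 were low together.

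Neurogranin (Nrgn), a postsynaptic calmodulin-binding protein of forebrain neurons, read 14.71 in replicate 1 and 15.02 to 15.59 in the others. Neurod6, a transcription factor of cortical projection neurons, read 11.69 against 12.04 to 12.50. The score of the list was -0.40 in replicate 1 and -0.08 to 0.19 in replicates 2 to 6. Without replicate 1 the median SD ratio was 1.56, against 2.18 with it, so the list stayed wider than the median gene.

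Genes of GABA interneurons divided within replicate 1. Lowest there were 8 of 13 tested members (18.1% of all genes), and 7 of 13 were wide (5.22% of all genes). Vip, a peptide of a class of cortical interneurons, read 12.60 in replicate 1 and 13.04 to 13.75 in the other 5. Npy, a peptide of another class, read 14.10 against 14.52 to 15.03.

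Pvalb, a calcium buffer of fast-spiking interneurons and of Purkinje cells, went the other way, with 15.19 in replicate 1 and 14.27 to 14.40 in the others. Calb2, a related buffer listed with the olfactory bulb and also present in cerebellar granule cells and in the olfactory bulb, read 14.52 against 13.05 to 13.51. Gad1, a GABA-synthesising enzyme, was highest in replicate 6 (15.72 against 15.08 to 15.33), and Sst, the peptide somatostatin, stayed between 14.78 and 15.18 with an SD ratio of 1.42. Without replicate 1 the median SD ratio of the interneuron list was 1.13, against 2.12 with it.

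Deep brain lists leaned toward replicate 1 by smaller amounts. Striatal genes were highest there in 9 of 12 tested members (20.7% of all genes), and 7 of 12 were highest of all 24 arrays (4.73% of all genes). Wide were 1 of 12, near the 5.22% of all genes. The dopamine receptor genes Drd1 (12.53 to 12.81 over the 6 arrays) and Drd2 (12.38 in replicate 1, 11.59 to 11.97 in the others) and the substance P precursor Tac1 (14.60 in replicate 1, 13.92 to 14.41 in the others, SD ratio 2.24) show the scale. Thalamic genes were highest in replicate 1 in 7 of 10 members (20.7% of all genes) and lowest in replicate 6 in 6 of 10 (23.3% of all genes), with Prkcd, a protein kinase typical of thalamic relay neurons, at 13.63 in replicate 1 and 13.10 to 13.52 in the others.

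Dopamine neuron genes were highest in replicate 1 in 6 of 7 tested members (20.7% of all genes). Th, the rate-limiting enzyme of dopamine synthesis, read 11.30, 10.69, 10.81, 10.63, 11.24 and 10.84, with replicates 1 and 5 above the rest. Aldh1a1, an aldehyde dehydrogenase of midbrain dopamine neurons, read 13.86 in replicate 1 and 12.87 to 13.38 in the others (SD ratio 2.56). Nr4a2, a transcription factor needed by dopamine neurons and also an activity-regulated gene, was instead lowest in replicate 1 (12.63 against 12.83 to 13.45).

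**Figure D3:**
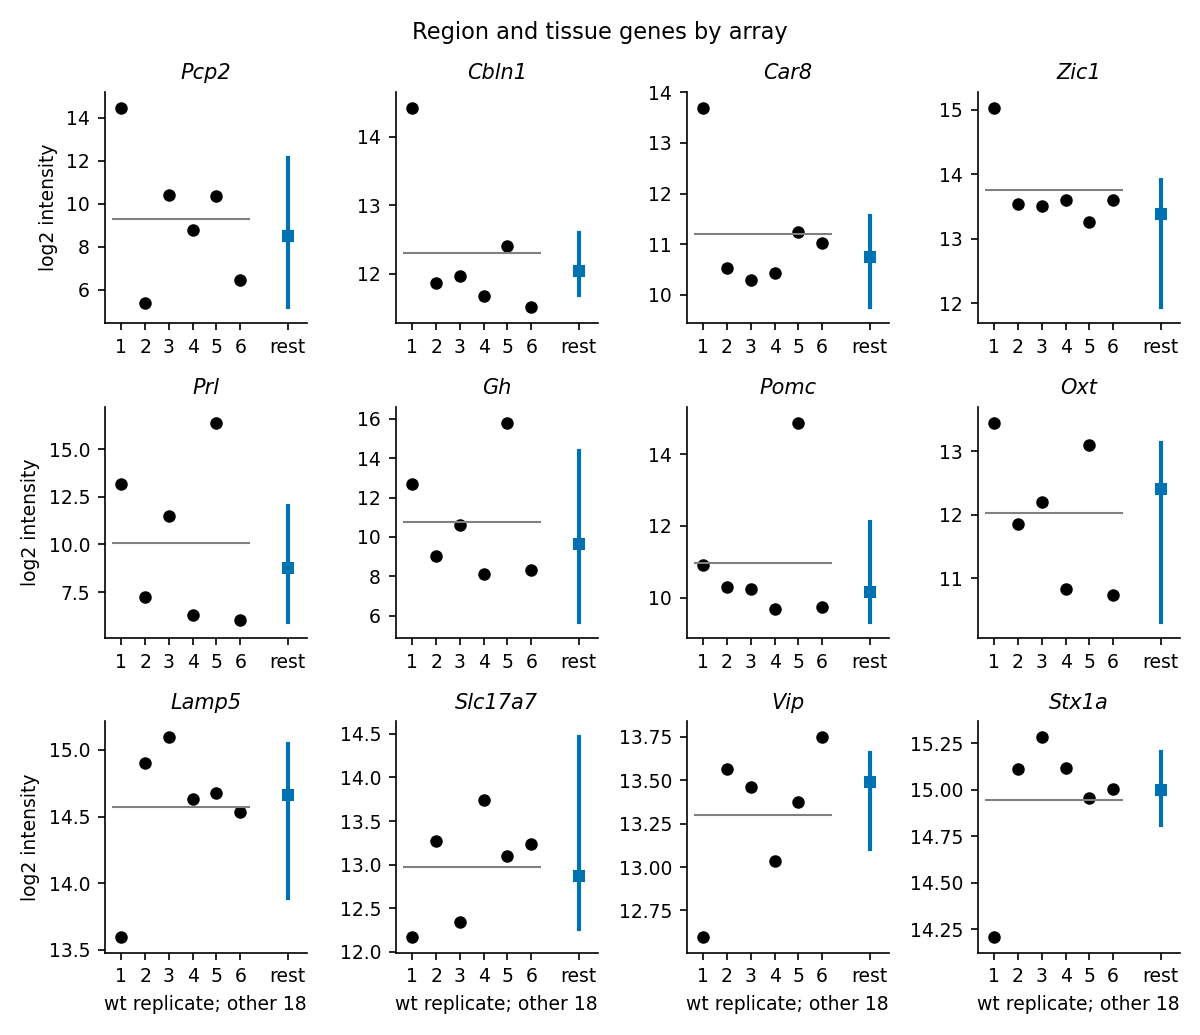
Levels (log2 intensity) of 12 genes in wt replicates 1 to 6 (black, grey line at the wt mean) beside the range (blue line) and median (blue square) of the other 18 arrays; each panel has its own axis. Replicate 1 stands above all others for Pcp2, Cbln1, Car8 and Zic1 and below them for Lamp5, Vip and Stx1a, and replicate 5 stands above all others for Prl, Gh and Pomc.

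The pituitary hangs below the hypothalamus and is easily left on or torn off a dissected brain. Its anterior lobe makes a few hormones in very large amounts: prolactin (Prl) for lactation, growth hormone (Gh) and the corticotropin precursor made from Pomc, which the hypothalamus also expresses. Because the hormone genes gave the widest list, the 250 bases upstream of the RefSeq start (build GRCm38.p6, plus strand) are shown for Prl at chr13:27057320-27057569 and for Pomc at chr12:3954695-3954944. Capitals mark TATNCAT, a motif of the type bound by the pituitary factor POU1F1, in Prl (read as ATGNATA on the other strand) and the TATA box TATAAA in Pomc.
Prl: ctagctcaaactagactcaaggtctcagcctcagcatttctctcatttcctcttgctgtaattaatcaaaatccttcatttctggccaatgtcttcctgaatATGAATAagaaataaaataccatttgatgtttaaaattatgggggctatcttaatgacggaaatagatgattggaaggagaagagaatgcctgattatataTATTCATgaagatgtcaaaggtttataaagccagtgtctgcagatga
Pomc: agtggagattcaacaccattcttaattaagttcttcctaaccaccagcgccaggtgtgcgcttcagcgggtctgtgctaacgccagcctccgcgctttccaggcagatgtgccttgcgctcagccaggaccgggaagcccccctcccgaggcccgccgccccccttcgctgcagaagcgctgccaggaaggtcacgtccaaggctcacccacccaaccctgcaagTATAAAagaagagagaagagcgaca
TATNCAT lies 148 and 47 bases upstream of the Prl start and overlaps no other motif searched; 8.16% of 27025 promoters held it on either strand, and of the 8 pituitary genes with an entry only Prl did. TATAAA, 25 bases upstream of the Pomc start, was found in 7 of the 8 pituitary promoters and in 13% of all. These matches describe the letters only.

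Prl read 13.18, 7.22, 11.48, 6.29, 16.40 and 6.06 log2 units in replicates 1 to 6, against 5.92 to 12.04 (median 8.78) in the other 18 arrays. Gh read 12.67, 9.01, 10.63, 8.11, 15.80 and 8.33, against 5.67 to 14.35 in the other 18. Among the wt arrays its other 3 probe sets also had replicate 5 highest and replicate 1 next. Pomc read 10.90, 10.30, 10.25, 9.69, 14.89 and 9.75, against 9.31 to 12.10 in the other 18. Replicate 5 was the highest of all 24 arrays for each of these genes, as for 1.72% of all genes. Among the wt arrays replicates 1 and 3 came next for Prl and Gh, and replicates 2, 4 and 6 were lowest for these 2 genes.

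Cga, the subunit shared by thyrotropin and the gonadotropins, was dim over the series but read 11.48 in replicate 5 and 8.76 in replicate 1, against 5.10 to 6.32 in the other 4. The hormone-specific subunits spread less. Lhb, the beta subunit of luteinising hormone, read 8.98, 9.20, 7.19, 8.84, 9.40 and 7.71, so that replicate 5 was again the highest of all 24 arrays (9.05 was the highest of the other 18), but close to the 9.20 of replicate 2. Tshb of thyrotropin read 8.88, 6.77, 8.51, 6.06, 8.81 and 8.66, with replicates 1 and 5 highest, and Fshb of follitropin 4.74 to 5.87, with replicate 3 highest. The receptors Ghrhr (5.48 to 8.43) and Gnrhr (6.10 to 8.14) and the factors Pitx1 (5.11 to 8.33) and Tbx19 (5.96 to 8.73) were left out as dim over the series, although each exceeded the dim limit of 8.13 in at least 1 wt array. Among the wt arrays Tbx19 was highest in replicate 5, Gnrhr and Pitx1 in replicate 4 and Ghrhr in replicate 3. Of the 7 dim members 1, Cga, was highest of all 24 arrays in replicate 5 (1.72% of all genes). Of 11 pituitary genes with a named probe set, 4 passed the filter and 3 of these were wide (5.22% of all genes). The score of the 4 tested members was 4.03 in replicate 5, 1.33 in replicate 1, and -1.16, -0.21, -1.86 and -2.13 in replicates 2, 3, 4 and 6. Without replicate 5 the median SD ratio was 6.99, and in aSYN, Hsp70 and aSYN/Hsp70 arrays it was 1.38, 1.32 and 2.82.

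Hypothalamic peptides had part of the same order. Avp (vasopressin, the antidiuretic hormone) read 12.99, 11.96, 12.54, 10.80, 12.81 and 11.09, and Oxt (oxytocin) 13.45, 11.85, 12.21, 10.83, 13.11 and 10.73. Pmch, the precursor of melanin-concentrating hormone from the lateral hypothalamus, read 14.55, 13.92, 14.11, 13.48, 14.03 and 13.20. Replicates 4 and 6 were lowest for all 3 peptides, as they were for Prl, and replicate 1 was highest for all 3, which it was not for Prl. Hcrt, the precursor of the wake-promoting orexins, had the same ends in a smaller range, from 11.96 in replicate 1 to 11.36 and 11.31 in replicates 6 and 4, with an SD ratio of 1.46.

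Of 11 tested hypothalamic genes 5 were wide (5.22% of all genes), 7 were highest in replicate 1 (20.7% of all genes) and 5 were lowest in replicate 6 (23.3% of all genes). The score was 0.61 and 0.47 in replicates 1 and 5, and -0.10, 0.13, -0.35 and -0.76 in replicates 2, 3, 4 and 6. The median SD ratio of the list was 1.62 in wt and 1.71, 2.16 and 1.40 in aSYN, Hsp70 and aSYN/Hsp70 arrays.

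Olfactory bulb genes, which mark the foremost part of the brain, were highest in replicates 1 (4 of 7 tested, 20.7% of all genes) and 6 (3 of 7, 16.4% of all genes). Eomes, a transcription factor of mitral and tufted cells, read 10.56, 8.77, 6.60, 8.96, 9.71 and 10.27, and Cdhr1, a cadherin-related protein of the same cells, 11.42, 10.22, 10.67, 10.37, 10.22 and 11.51. Doc2g, another bulb gene, was highest in replicate 6 (10.91 against 9.61 to 10.32). Replicate 6 was instead lowest for 2 of the 7 (23.3% of all genes), Calb2 (13.05) and Lbhd2 (9.73, named because of its value). Replicates 1 and 6 read above the other 4 for Eomes and Cdhr1. Without replicate 6 the median SD ratio of the list was 1.14, against 1.91 with it. Tbx21, a further marker of these cells, was dim in all 6 (5.07 to 6.47).

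Markers of small nuclei in the brainstem and basal forebrain were mostly near the dim limit. Tph2 and Slc6a4, the enzyme and transporter of serotonin neurons, read 9.09 and 9.38 in replicate 1 and 5.05 to 8.01 and 7.56 to 8.56 in the others. Dbh, the enzyme of noradrenaline synthesis, was low in replicates 2 and 5 (6.95 and 7.09) and 8.90 to 9.15 in the other 4. Chat, the acetylcholine-synthesising enzyme, was left out as dim (5.25 to 8.39), and Slc18a3, the vesicular acetylcholine transporter, read 7.88 to 9.52. Of 10 hindbrain genes measured 2 were tested, Hoxa5 (8.79 to 9.95) and the glycine receptor gene Glra1 (5.77 in replicate 3, 7.96 to 9.23 in the others).

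**Figure D4:**
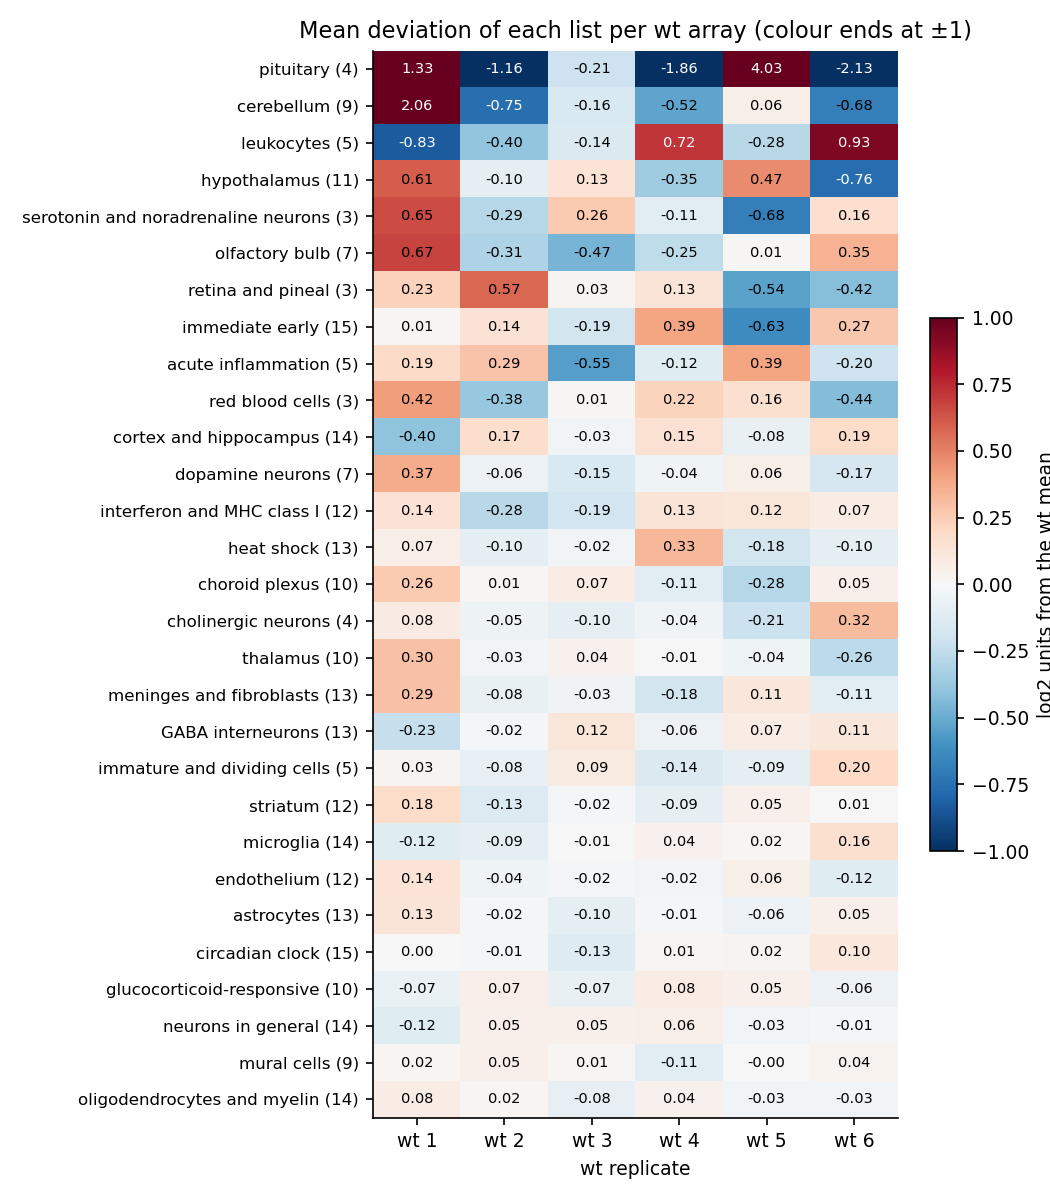
Score (mean deviation from the wt mean in log2 units) of each list with at least 3 tested members, housekeeping lists left out, in the 6 wt arrays; numbers of tested members are in brackets and the colour scale ends at ±1. Replicate 1 is high for cerebellum (2.06) and low for cortex and hippocampus (-0.40), replicate 5 is high for pituitary (4.03), and microglia scores run only from -0.12 to 0.16.

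The markers that define brain tissue were present in all 6 arrays. Snap25 and Syt1, proteins of synaptic vesicle release, averaged 16.79 ± 0.14 and 16.76 ± 0.10 log2 units (SD, n = 6), and Rbfox3, the neuronal nuclear antigen NeuN, 15.56 ± 0.09. Their SD ratios were 1.88, 1.36 and 0.95, so Snap25 varied more than is typical at its level although its SD was small. Of 14 tested genes of neurons in general 2 were wide (5.22% of all genes). Stx1a, a membrane fusion protein of the synapse, read 14.21 in replicate 1 and 14.96 to 15.28 in the others, and its second probe set was also lowest there (12.89 against 13.45 to 14.09). Thy1, a surface protein of projection neurons, read 15.71 in replicate 6 and 16.19 to 16.35 in the others.

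Astrocyte and oligodendrocyte genes varied more than the typical gene of their level, with median SD ratios of 1.45 and 1.33 against 0.986 over all genes, but few were wide. Gfap, the intermediate filament of astrocytes, averaged 13.32 ± 0.18, the water channel Aqp4 13.93 ± 0.21 and the glutamate transporter Slc1a2 16.41 ± 0.12 (SD, n = 6). In oligodendrocytes, which make myelin, the myelin proteins Mbp (17.06 ± 0.12) and Mog (12.20 ± 0.20) had SD ratios of 1.80 and 1.31, and Sox10, a transcription factor of the lineage, was the 1 wide member of 14 (11.11 in replicate 6 to 12.07 in replicate 4). Among astrocyte genes 1 of 13 was wide, glutamine synthetase (Glul) at a ratio of 2.03. Over all genes 5.22% were wide.

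Microglia, the resident immune cells of the brain, were read through 14 tested genes, of which 1 was wide (5.22% of all genes). The fractalkine receptor Cx3cr1 read 12.18 to 12.38 over the 6 arrays, the growth factor receptor Csf1r 14.69 to 14.89 and the complement gene C1qa 13.02 to 13.28. Another complement gene, C1qc, spanned 12.03 in replicate 2 to 12.87 in replicate 3. The highest value of 6 members lay in replicate 6 (16.4% of all genes), and the scores ran only from -0.12 to 0.16.

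The vascular lists were near the typical gene, and each had 1 wide member, against 5.22% of all genes. Endothelial genes had a median SD ratio of 1.06, with the tight junction protein Cldn5 as the 1 wide member of 12 (13.25 in replicate 1 to 12.44 in replicate 6), and mural cells a ratio of 1.02, with the growth factor receptor Pdgfrb wide (11.46 in replicate 6, 10.29 to 10.83 in the others). Choroid plexus, the secretory tissue of the ventricles, gave 0 wide genes of 10 (5.22% of all genes). Its transthyretin gene Ttr, whose transcript is a common sign of ventricular tissue, read 17.12 to 17.47. Of 13 meningeal and fibroblast genes, 9 were highest in replicate 1 (20.7% of all genes), and 2 were wide (5.22% of all genes): Slc6a13, a GABA and taurine transporter (10.96 in replicate 1 to 9.60 in replicate 6), and the matrix protein Fmod (12.11 in replicate 1 to 11.10 in replicate 4).

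Tissues that should be absent from a brain other than as blood or attachments were mostly dim. Of liver genes 1 of 7 measured passed the filter, of skeletal muscle genes 2 of 8, of olfactory epithelium genes 2 of 6 and of retina and pineal genes 3 of 7. Albumin (Alb) read 5.10 to 7.67, muscle creatine kinase (Ckm) 6.16 to 9.01, the photoreceptor factor Crx 6.80 to 8.38 and the olfactory marker protein Omp 5.51 to 9.11. Among red blood cell genes Alas2, the haem-synthesis enzyme of erythroid cells, read 8.77 to 9.63, and the alpha globin Hba-a1 5.36 to 7.66.

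Leukocyte genes separated replicates 4 and 6. S100a8, a calcium-binding protein abundant in neutrophils, read 8.69, 8.52, 8.81, 10.96, 9.10 and 10.65, and both high values exceeded the 9.60 that was the highest of the other 18 arrays. Ngp, a protein of neutrophil granules, read 5.88, 8.41, 8.45, 9.71, 7.98 and 10.13. S100a9, the partner of S100a8, was dim over the series and is named because of its values, with 11.55 and 10.57 in replicates 4 and 6 and 6.01 to 9.34 in the others.

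The lymphocyte genes Cd3e (6.01 to 8.24) and Cd79a (5.04 to 8.78) were left out as dim over the series and did not separate replicates 4 and 6, which read 6.12 and 7.14 for Cd3e and 6.97 and 5.04 for Cd79a. The leukocyte score was 0.72 and 0.93 in replicates 4 and 6 and -0.83 to -0.14 in the other 4. The part of blood left in the vessels was not tested.

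Sex-linked genes divided the arrays cleanly. Xist, the RNA that silences 1 X chromosome in female cells, read 14.16, 14.12, 14.10, 8.17, 13.65 and 8.44, and its other 2 probe sets were also lowest in replicates 4 and 6. The Y-linked Eif2s3y, a translation factor subunit, read 10.72 and 10.34 in replicates 4 and 6 and 4.48 to 6.69 in the others. The Y-linked histone demethylase genes Kdm5d (9.97 and 10.09, against 4.82 to 7.39) and Uty (8.99 and 9.77, against 7.60 to 7.97) had the same order. Replicates 4 and 6 thus had low Xist and high Y-linked signal, the male pattern, and replicates 1, 2, 3 and 5 the female one. Low Prl, Avp, Oxt and Pmch and high S100a8 and Ngp occurred in the same replicates 4 and 6, and sex cannot be told apart there from whatever else these 2 samples share.

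Immediate early genes, which neurons transcribe within minutes of activity or of handling, had median SD ratios above the typical gene in all 4 groups of the series, with 2.53 in wt and 3.28, 2.25 and 1.84 in aSYN, Hsp70 and aSYN/Hsp70 arrays. Many are driven through cAMP response elements, bound by the factor CREB. The 250 bases upstream of the RefSeq starts of Fos at chr12:85473640-85473889 and Nr4a1 at chr15:101266596-101266845 (build GRCm38.p6, plus strand) are shown because both genes were wide, with the core of that element, TGACG or its reverse complement CGTCA, in capitals.
Fos: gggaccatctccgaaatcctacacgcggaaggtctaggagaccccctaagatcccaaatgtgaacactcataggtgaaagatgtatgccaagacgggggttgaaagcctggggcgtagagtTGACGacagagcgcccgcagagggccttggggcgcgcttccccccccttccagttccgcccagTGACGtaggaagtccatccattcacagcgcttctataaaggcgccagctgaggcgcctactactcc
Nr4a1: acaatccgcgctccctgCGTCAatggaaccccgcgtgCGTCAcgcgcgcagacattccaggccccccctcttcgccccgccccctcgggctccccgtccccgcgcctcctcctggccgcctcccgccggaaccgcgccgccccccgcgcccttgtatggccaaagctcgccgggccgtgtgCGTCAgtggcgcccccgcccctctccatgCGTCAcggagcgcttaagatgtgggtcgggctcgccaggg
Fos holds the core 129 and 66 bases upstream of its start, and Nr4a1 holds it 233, 213, 69 and 40 bases upstream on the other strand. TGACG was found in 9 of the 12 immediate early promoters with an entry and in 17.9% of all 27025, counting those where it lies within the full element TGACGTCA (1.62% of all). The share was the same in the cytosolic ribosome list (6 of 8), 1 of the narrowest lists, and in sex-linked genes (3 of 4). These matches describe the letters only and were not tied to width.

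Of 15 immediate early genes 11 were wide (5.22% of all genes), 10 were lowest in replicate 5 (15.9% of all genes) and 9 highest in replicate 4 (16% of all genes). Arc, a synaptic gene induced by activity, read 12.31, 12.27, 11.79, 13.56, 10.67 and 12.83 log2 units, an SD ratio of 6.57. Fos, a subunit of the transcription factor AP-1, read 13.12, 13.09, 12.58, 13.43, 12.05 and 13.40. Nr4a1, a nuclear receptor, read 13.02, 13.30, 12.82, 13.81, 12.19 and 13.15. Replicate 5 was lowest for all 3 and replicate 3 next, and replicate 4 was highest.

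Egr1, a zinc-finger factor, kept the same ends in a smaller range, 15.03 in replicate 5 to 15.89 in replicate 4. Jun, the partner of Fos in AP-1, is named because of its value: it was the steadiest of the 15, at 12.11 to 12.24 with an SD ratio of 0.30. The list score was -0.63 in replicate 5 and 0.39 in replicate 4. All 15 members lay within the range of the other 18 arrays in every wt replicate except Junb, another AP-1 subunit, and Ier2, both named because of their values and lowest of all 24 in replicate 5 (10.67 and 9.75), as were 1.64% of all genes. Without replicate 5 the median SD ratio was 2.07.

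Other lists of physiological state were narrower, each with a few wide members. Of 13 heat shock genes 4 were wide (5.22% of all genes) and 8 were highest in replicate 4 (16% of all genes). Hspa1b, an inducible HSP70, read 11.55, 11.94, 12.11, 13.66, 11.58 and 12.11. The small heat shock proteins Hspb1 (13.78 in replicate 4, 12.44 to 13.02 in the others) and Cryab (15.07, against 14.24 to 14.77) followed. The 3 probe sets of Hspa1b were each highest in replicate 4. Hspa1a, its near-identical copy, was lowest in replicate 3 (10.26) and between 10.89 and 11.23 in the others, and probes of such copies can share signal.

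Among 15 clock genes 2 were wide (5.22% of all genes). Dbp, an output gene of the clock that swings widely over the day, read 14.20, 13.81, 13.80, 13.68, 14.79 and 14.73, and Bmal1 (carried by the array as Arntl), the activator that peaks opposite to it, 11.17 and 11.66 in replicates 5 and 6 and 11.86 to 12.09 in the others. Replicates 5 and 6 were highest for Dbp and lowest for Bmal1. The light-responsive Per1 stayed between 11.02 and 11.58, and no time of tissue collection is given in the labels.

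Of 10 glucocorticoid-responsive genes, 1 was wide (5.22% of all genes). This was Zbtb16, a transcriptional repressor, at 12.78 in replicate 6 and 12.44 in replicate 4, with its lowest value, 11.65, in replicate 1. Fkbp5, a stress-hormone co-chaperone, stayed between 11.53 and 11.79. Among interferon and MHC class I genes 2 of 12 were wide (5.22% of all genes). These were B2m (13.40 in replicate 2, 14.27 to 14.68 in the others) and H2-D1 (12.67 in replicate 2, 13.04 to 13.51 in the others). They encode the light and a heavy chain of the class I molecule. Of 5 tested inflammation genes 1 was wide (5.22% of all genes). This was Serpina3n, a protease inhibitor of reactive astrocytes, at 12.58, 12.07, 10.66, 12.70, 11.90 and 10.24. Irf7 and Ifit1, which interferon induces, stayed near the dim limit (7.44 to 8.88 and 7.78 to 9.16).

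The steadiest lists were those of basic metabolism, in which no tested member was wide (5.22% of all genes). In the respiratory chain, the ATP-producing complexes of mitochondria, Uqcrc1 of complex III read 15.04 to 15.11, Ndufa5 of complex I 15.05 to 15.28 and Sdha of complex II 15.44 to 15.60. The glycolytic enzymes Pgk1 (15.94 to 16.05) and Aldoa (16.54 to 16.64) were as narrow, while the lactate dehydrogenase genes Ldha (15.02 to 15.40) and Ldhb (15.67 to 16.02) spread most in that list, at ratios of 1.60 and 1.85.

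Proteasome genes such as Psmc1 (14.27 to 14.42) and Psmb5 (14.71 to 14.89) and ribosomal genes such as Rplp0 (15.31 to 15.71) had no wide member. Over all genes 5.22% were wide. The ribosomal gene Rps6 had an SD of 0.40 and a ratio of 1.89. Of genes commonly used as references, Actb (beta actin) was steadiest, at 17.03 to 17.08 with an SD of 0.02 and a ratio of 0.28, and Tbp (10.93 to 11.17) and Hprt (14.84 to 15.01) had ratios of 0.43 and 0.66. Tfrc, the transferrin receptor (13.16 to 13.70), and Ywhaz, a 14-3-3 protein (SD 0.12), were the widest of the references, at 1.70 and 1.53.

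Over all genes, the 12 widest were Xist (SD ratio 19.3), Prune2 (18.9), Pttg1 (16.9), Prl (16.7), Gh (14.2), Cap1 (9.92), Pomc (9.86), Pcp2 (9.31), Erdr1 (9.15), Snhg6 (8.32), Pdxdc1 (8.20) and Cbln1 (7.35). For 9 of them the ratio was much lower with a single array left out. For Prl, Gh and Pcp2 that array did not stand apart by Dixon's critical share of the range. Its gap to the nearest array was 0.31, 0.41 and 0.45 of the range for these genes. Leaving out a high array also lowers the mean level, and the typical SD is larger at lower levels. Part of such a fall can therefore come from the divisor. The ratio was 5.46 for Prune2 without replicate 2, 4.73 for Pttg1, 4.02 for Cap1 and 3.44 for Pdxdc1 without replicate 6, 7.67 for Prl, 6.99 for Gh and 2.04 for Pomc without replicate 5, and 3.69 for Pcp2 and 2.25 for Cbln1 without replicate 1. All 9 stayed at 2 or more, and Xist, Erdr1 and Snhg6 kept ratios of at least 7.15 with any 1 array left out. Members of the sex-linked, pituitary and cerebellar lists made up 6 of the 12. The other 6 belonged to no list and split the arrays in steps. Pttg1, the separase inhibitor securin, read 15.83, 15.06, 15.88, 15.16, 15.16 and 11.12, and a second probe set was also lowest in replicate 6 (10.55 against 12.36 to 13.63).

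Cap1, an actin-recycling protein, read 13.91, 14.76, 13.98, 14.71, 14.57 and 11.67, with 11.53 in replicate 6 and 13.34 to 14.32 in the others at a second probe set. Pttg1 and Cap1 were thus low together in replicate 6, and each reached a like low value elsewhere in the series, since the lowest of the other 18 arrays were 10.97 and 11.60. Pdxdc1, a decarboxylase-like protein, was 8.99 in replicate 6 and 11.82 to 12.75 in the others, and 2 more of its probe sets were also lowest there (8.14 and 10.50), whereas the remaining one was low in replicates 3 and 5 (5.37 and 7.13, against 11.81 to 12.84).

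Prune2, a neuronal protein with a lipid-binding domain, read 8.25 in replicate 2 and 13.34 to 14.81 in the others, and its next brightest probe set did not follow, being highest in replicate 2 (12.65 against 11.20 to 12.40). Snhg6, a host transcript of small nucleolar RNAs, had low values in replicates 1 and 4 (11.54 and 11.09, against 12.95 to 13.89). Erdr1 was low in replicates 4 and 6 (11.52 and 11.92, against 12.96 to 14.55), the same arrays in which Xist was low. Whether its step goes with sex was not tested. Where a gene had a second probe set, both had the same highest array in 133 of 346 wide genes (38.4%) and in 1591 of 6266 genes overall (25.4%). They had the same lowest array in 151 of the 346 (43.6%) and in 1675 of the 6266 (26.7%).

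**Figure D5:**
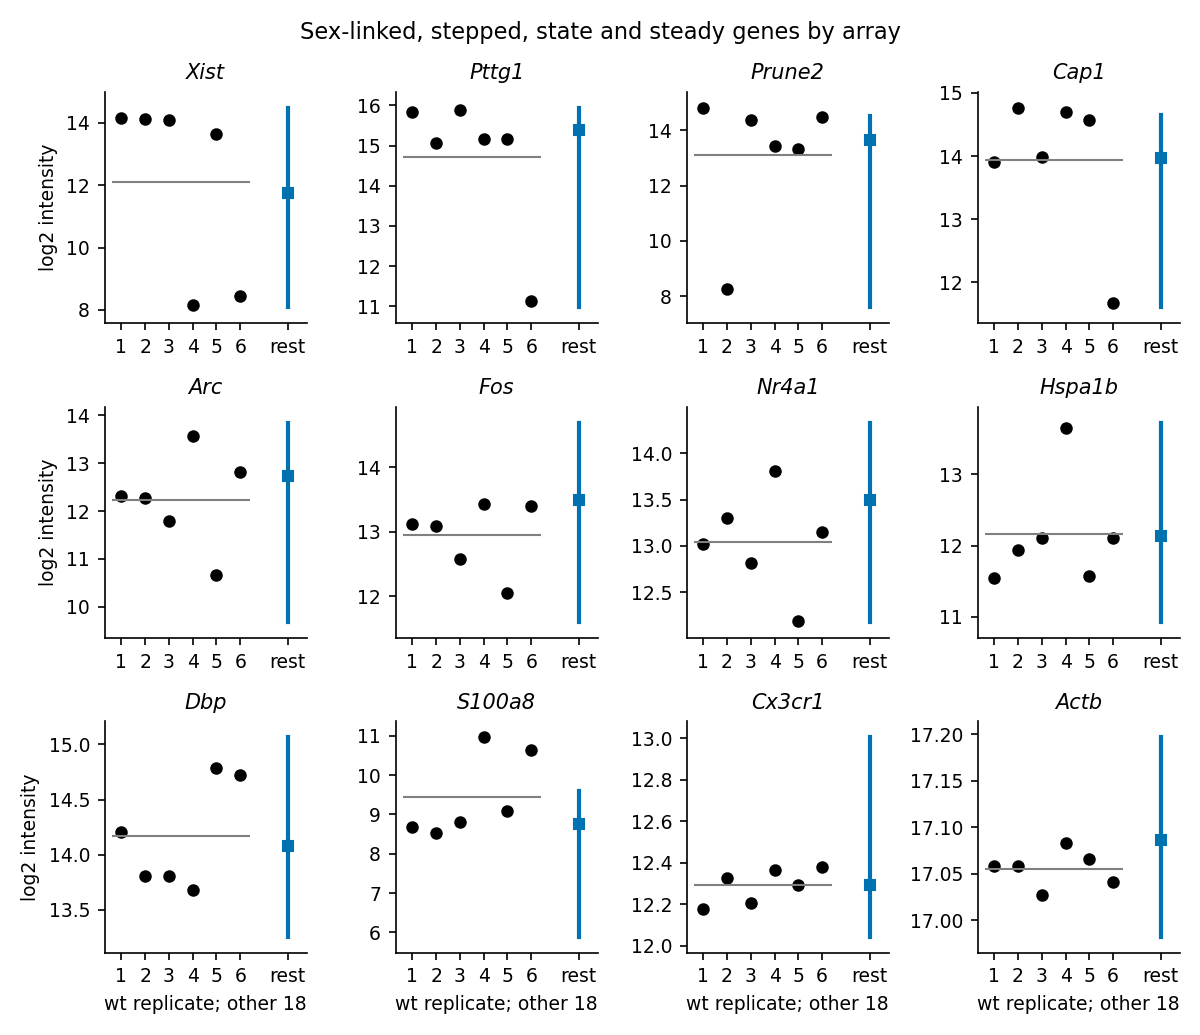
Levels (log2 intensity) of 12 genes in wt replicates 1 to 6 (black, grey line at the wt mean) beside the range (blue line) and median (blue square) of the other 18 arrays; each panel has its own axis, so that Actb spans 0.06 log2 units and Xist 5.98. Xist is low in replicates 4 and 6, Pttg1 and Cap1 in replicate 6 and Prune2 in replicate 2, while Arc, Fos and Nr4a1 are lowest in replicate 5.

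The 12 narrowest genes were Pdcd2l (SD ratio 0.11), Clns1a, Mgat2, Ggct, Cdk8, Evl, Map7d2, Tbc1d25, Cnga4, 5730409E04Rik, Golga2 and Trmt44 (0.18). Pdcd2l, an export adaptor of ribosome assembly, read 11.42 to 11.46, and Clns1a, a subunit of the methylosome that prepares splicing proteins, 15.05 to 15.08. Their SD ratios within the aSYN, Hsp70 and aSYN/Hsp70 groups were 0.61, 1.29 and 0.37 for Pdcd2l and 1.06, 0.82 and 0.69 for Clns1a. Over the 12 genes these ratios ran from 0.37 to 1.85 in the other groups, so none of them was wide there and narrowness in wt did not carry over to every group.

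Width was shared in part with the other groups. Of the 675 genes wide in wt, 223 (33.0%) were also wide among the aSYN arrays, where 4.66% of all genes were wide. They made up 37.0% of the 602 wide genes there. With Hsp70 arrays 191 were shared (28.3% of the wt genes and 25.9% of the 737 wide there, which are 5.7% of all genes). With aSYN/Hsp70 arrays 161 were shared (23.9% of the wt genes and 18.3% of the 881 wide there, which are 6.81% of all genes). Wide in all 4 groups were 58 genes (8.59% of the 675), and 335 (49.6%) were wide in wt alone among the 4 groups. With 4.66%, 5.7% and 6.81% of all genes wide in the 3 other groups, most genes were wide in none of those groups. The 335 therefore do not show that width was particular to wt.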

How the data were processed

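Total RNA of whole mouse brains was hybridised to Affymetrix arrays, per the labels; 24 arrays were deposited and the 6 wt arrays are described. The deposited values are linear intensity units per probe set, 1 table for each array, and the sources used here do not name the program that summarised them. In every table the mean of probe sets with 2% trimmed at each end was 2500.01, so each array carries a single scaling factor. From these deposited intensity values log2(intensity + 16) was computed and quantile normalised over 24 arrays. Of 45101 probe sets, 64 controls and the 18015 dimmest (40%) were left out, which left 27022. GEO's platform annotation, updated through RefSeq, gave 34945 probe sets 1 symbol, 932 several and 9160 none, and the brightest probe set stood for a gene.

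The SD over the 6 arrays was divided by a lowess trend on the mean level (span 0.3), and 2 or more was counted as wide. An array stood apart where its gap to the nearest was over 0.625 of the range. No test was run, since 1 group without a contrast allows none, and the number of arrays limits the precision. On simulated data of 12929 genes, 165 of 200 genes with a 3-fold SD were recovered (82.5%). Members and gene lists were chosen with earlier results of these data known. Named genes were the first 3 of each list, up to 3 of its widest, all sex-linked genes, all measured members of the 3 widest lists and the 12 widest and 12 narrowest genes; others named were chosen after their values were seen. The alternatives tried were a smaller and a larger offset, quantile normalisation over the 6 wt arrays or none, no filter on dim probe sets, the mean over probe sets, the median absolute deviation and each array left out; a filter on the wt mean was added after seeing the data. Python 3.11.15 was used with numpy 2.4.6, pandas 2.3.3, scipy 1.17.1, statsmodels 0.14.6 and matplotlib 3.10.9.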

Additional observations from a re-analysis of the deposited data

Results flagged for a closer look

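In each case below a single wt array lay farther from the other 5 than Dixon's critical share of the whole range, which chance gives in about 1 in 20 groups. It held for 1037 of 12929 genes (8.02%), for 27 of the 213 named genes (12.7%) and for 4 of 39 list scores. Named genes were chosen in part for their wide spread in these same arrays, so their share cannot be compared with that of all genes.

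Replicate 1 stood high for the cerebellar genes Cbln1 (14.42 log2 units), Car8 (13.69), Zic1 (15.02), Gdf10 (11.84) and Slc1a6 (11.79), for the calcium buffers Pvalb (15.19) and Calb2 (14.52), for the proteasome gene Psmb1 (14.72) and for the cerebellum score (2.06). It stood low for Lamp5 (13.60) and Stx1a (14.21). The amount of cerebellum and cortex in replicate 1 was not tested.

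Replicate 5 stood high for the hormone precursor Pomc (14.89) and for the dim Hox gene Hoxb5 (6.35). Replicate 4 stood high for Hspa1b (13.66) and low for the proteasome gene Psma1 (13.74) and the mural cell score (-0.11).

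Replicate 6 stood low for Pttg1 (11.12), Cap1 (11.67), Pdxdc1 (8.99), Thy1 (15.71), the ribosomal gene Rps18 (15.66), the dopamine transporter Slc6a3 (10.72) and the olfactory epithelium score (-0.35). That score rests on 2 tested genes, Gng13 and Adcy3, with 4 members dim. Replicate 2 stood low for Prune2 (8.25) and B2m (13.40).

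Replicate 3 stood low for Hspa1a (10.26), Glra1 (5.77), the dim Gnrhr (6.10), the photoreceptor gene Rom1 (8.32) and the hindbrain score (-1.49), which rests on 2 tested genes, and high for the dim Fshb (5.87).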

How the results depend on the processing

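No paired analysis was possible because no groups were compared and the results come from no test. A reversal was possible only for the 4 list scores recomputed, since counts and SD ratios are always positive. The scores were those of pituitary and immediate early genes in replicate 5 and of cerebellum and of cortex and hippocampus in replicate 1. These 4 scores kept their sign under the alternatives run and moved by less than their spread. The count of wide genes, 675, was 1144 with the median absolute deviation and 768 to 853 with 1 array left out. Without the filter on dim probe sets the median SD ratio was 1.65 for pituitary, 2.7 for sex-linked genes and 1.18 for olfactory epithelium. With the median absolute deviation it was 0.814 for serotonin and noradrenaline neurons, 1.56 for oligodendrocytes, 1.34 for microglia, 1.36 for mural cells, 1.51 for meninges, 1.94 for leukocytes, 0.86 for skeletal muscle, 0.689 for retina and pineal, 1.78 for glucocorticoid-responsive genes and 1.86 for sex-linked genes. The leukocyte ratio was 2.12 with quantile normalisation over the 6 wt arrays, 1.93 with the larger offset and 2.1 with the added filter on the wt mean. With the mean over probe sets the ribosome ratio was 0.763 and the respiratory chain ratio 0.91. With 1 array left out the ratio ran from 1.2 to 6.35 for cerebellum (lowest without replicate 1), 6.99 to 15.04 for pituitary, 1.0 to 1.83 for serotonin and noradrenaline neurons, 1.23 to 1.37 for cholinergic neurons, 1.13 to 2.4 for GABA interneurons, 1.36 to 1.5 for meninges and 0.911 to 1.09 for the ribosome. The cause of these shifts was not tested. Over 14 settings, the ranks among the 39 lists, widest first, were 1 to 7 for pituitary, 2 to 6 for sex-linked genes, 2 to 8 for immediate early genes, 4 to 9 for cortex and hippocampus, 1 to 24 for cerebellum and 36 to 39 for glycolysis. Dim probe sets lie near background, which limits what their spread shows.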
